A study of Drosophila melanogaster with 18 samples.

Results

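BG3 is a Drosophila melanogaster cell line grown from the larval nervous system, and its RNA was compared here with that of neurons sorted from larvae. The comparison used 6 of the 18 RNA-sequencing libraries of a study of the RNA-binding protein shep, taken by their titles as 3 BG3 and 3 larval neuron libraries and normalised together. The BG3 cells, listed as BG3-c2, had been treated with double-stranded RNA (dsRNA) against GFP, the study's control treatment. The neurons were sorted live from animals at the last larval stage, the third instar, of the control genotype elav>Dcr, mCD8::GFP, in which the pan-neuronal elav driver expresses the RNAi factor Dcr and a membrane GFP, with no shep RNAi. All neuron groups of the study carried Dcr and mCD8::GFP, so the sorted cells express GFP while the line, to which the labels give no transgene, received dsRNA against it. A second set of 6 libraries from the same study, BG3 cells given shep dsRNA and larval neurons of elav>shep-RNAi, Dcr, mCD8::GFP animals, was used to repeat the comparison. BG3 stands for 1 clonal line, and the sorted neurons stand for all cells in which the elav driver gave GFP. The labels do not say whether replicates came from separate cultures or animals, so a p-value sets a difference against the spread of these libraries alone.

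Larval neurons arise from neuroblasts, stem cells that divide asymmetrically to renew themselves and to bud off ganglion mother cells whose daughters become neurons or glia. Neuroblasts are marked by the proneural factor ase, the bHLH repressor dpn and the Snail-family factor wor. Neurons are marked by the RNA-binding protein elav and by the synaptic release machinery, and glia by the homeodomain factor repo. Hemocytes, the blood cells of the fly, come from mesoderm, are specified by the GATA factor srp, engulf dying cells and secrete much of the basement membrane. BG3 is widely used as a neural counterpart to embryonic lines in work on chromatin, and the comparison asks which of these expression patterns the line keeps.

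The BG3 libraries held 3203392, 3150914 and 3141100 counts, and the larval neuron libraries 12910603, 9984725 and 10590243. Between 9125 and 9315 genes had a count in a BG3 library and between 11829 and 12074 in a larval library, so a gene without a count in BG3 was sampled less deeply there than in neurons. Pearson's r of log2 CPM across genes was 0.985 to 0.988 within BG3, 0.993 to 0.995 within the neurons and 0.489 to 0.515 between them. Genes of the mitochondrial genome took 12.7% to 17.7% of the BG3 counts and 1.17% to 1.32% of the larval counts. The larval libraries had been made from dissociated and sorted cells and the BG3 libraries from culture, so effects of handling and of cell kind cannot be told apart. In bulk libraries, fewer cells of a type and less RNA per cell cannot be told apart either. shep (FBgn0052423, chromosome 3L from 5155821 to 5277944 of dm6) was at 421, 401 and 450.2 CPM in the BG3 libraries and at 1599.9, 1837 and 1962 CPM in the larval libraries. Dcr-2 was at 112 ± 13.7 CPM in BG3 and 1645 ± 79.6 CPM in the larval neurons (SD, n = 3 each), which carry the Dcr transgene.

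Levels are given as CPM, the counts of a gene scaled to a common library total by TMM over the 6 libraries, means carry the SD over 3 libraries, and a fold change is BG3 over larval neurons. A gene was called at an edgeR quasi-likelihood adjusted p under 0.05 and a fold of at least 2 in either direction. Of 8359 genes tested, 2119 were higher and 2579 lower in BG3, together 56.2% of those tested, 25.3% higher and 30.9% lower. The median log2 fold change of all tested genes was -0.14, and it moved to 0.15 with upper-quartile scaling. These shares are the background against which the count of each list is read. At the adjusted p alone, with no minimum fold, 84.0% were called, 38.9% higher and 45.1% lower, and in 85.8% of the tested genes the BG3 and larval libraries did not overlap. At 1 CPM or more in each of 3 libraries, here called listed, 6470 genes were listed in both kinds of cell, 655 in BG3 alone and 1586 in larval neurons alone. Of the 1586, 1081 had at most 3 counts over the 3 BG3 libraries. A tested gene listed in 1 kind of cell alone had passed edgeR's filter on low counts mainly through that kind. The direction of its call was largely set in advance, and the list counts carry this limit.

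**Figure D1:**
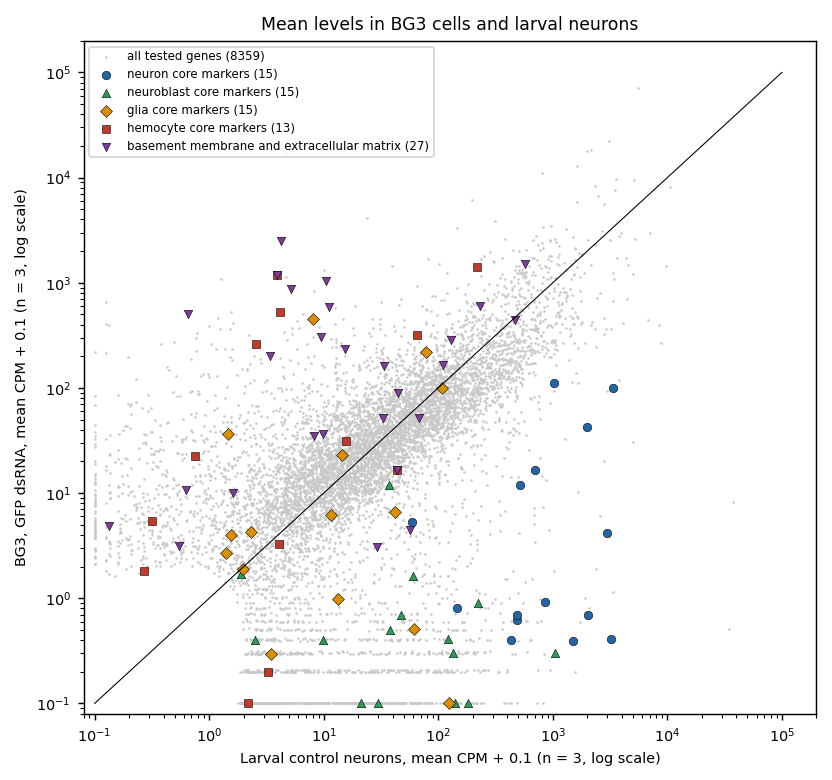
Mean CPM + 0.1 in BG3 (vertical, log scale) against mean CPM + 0.1 in larval control neurons (horizontal, log scale) for 8359 tested genes in grey, with the tested members of 5 lists coloured. All 15 neuron markers and 14 of 15 tested neuroblast markers lie below the diagonal of equal levels among the called genes, while 9 of 13 tested hemocyte markers and 19 of 27 tested basement membrane and matrix genes were called above it.

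All 15 core neuron markers were lower in BG3, in a comparison where 30.9% of genes were, and their median log2 fold change was -9.53 against -0.14 for all genes. Their summed level was 278 to 310.3 CPM in the BG3 libraries and 17825 to 21196 CPM in the larval libraries. elav (FBgn0260400, chromosome X from 509235 to 523226), an RNA-binding protein of differentiated neurons, was at 99.1, 95.3 and 103 CPM in BG3 and at 3331, 3425 and 3342 CPM in neurons (log2 fold change -5.09 with SE 0.11, edgeR adjusted p = 3.22e-17). Each BG3 library was below each larval library, and elav was among the 7 core markers listed in both. fne, a related RNA-binding protein, was at 0.601, 0.318 and 0 CPM in BG3 and 2676, 3294 and 3637 CPM in neurons, a ratio of neurons to BG3 of 10400.0 (95% counting interval 3558 to 50420.0). The smallest fall of the 15 was that of the zinc-finger gene dati, at 119.9, 107 and 104.03 CPM in BG3 and 823, 1079 and 1172 CPM in neurons (log2 fold change -3.22 with SE 0.13, edgeR adjusted p = 1.58e-12). Rbp9, the remaining member of the elav family on the list, had means of 5.2 ± 1.61 CPM in BG3 and 58.7 ± 6.03 CPM in neurons. CadN, a neuronal cadherin, was at 48.7, 35.6 and 41.7 CPM in BG3 and 1896, 2013 and 2094 CPM in neurons (log2 fold change -5.57 with SE 0.12, edgeR adjusted p = 6.37e-17). cpx and futsch, a regulator of synaptic fusion and a microtubule-associated protein, had BG3 means of 16.5 ± 0.724 and 11.8 ± 2.55 CPM against 697 ± 106 and 521 ± 34.6 CPM in neurons. The vesicle and active-zone proteins nSyb, Syt1, Syn and brp had BG3 means of 0.515 ± 0.38, 0.303 ± 0.0134, 0.707 ± 0.171 and 0.815 ± 0.488 CPM against 489 ± 78.5, 434 ± 82, 146 ± 29.1 and 859 ± 129 CPM in neurons. The factors scrt, nerfin-1 and onecut, which act in early neuronal differentiation, had BG3 means of 0.294 ± 0.291, 0.586 ± 0.769 and 0.592 ± 0.513 CPM against 1494 ± 239, 2035 ± 223 and 489 ± 23.3 CPM. Appl, the fly amyloid precursor protein, had 4.05 ± 0.732 CPM against 2996 ± 524 CPM. After shep depletion of both kinds of cell, in libraries that the first comparison did not use, all 15 were again lower, where 30.1% of tested genes were.

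**Figure D2:**
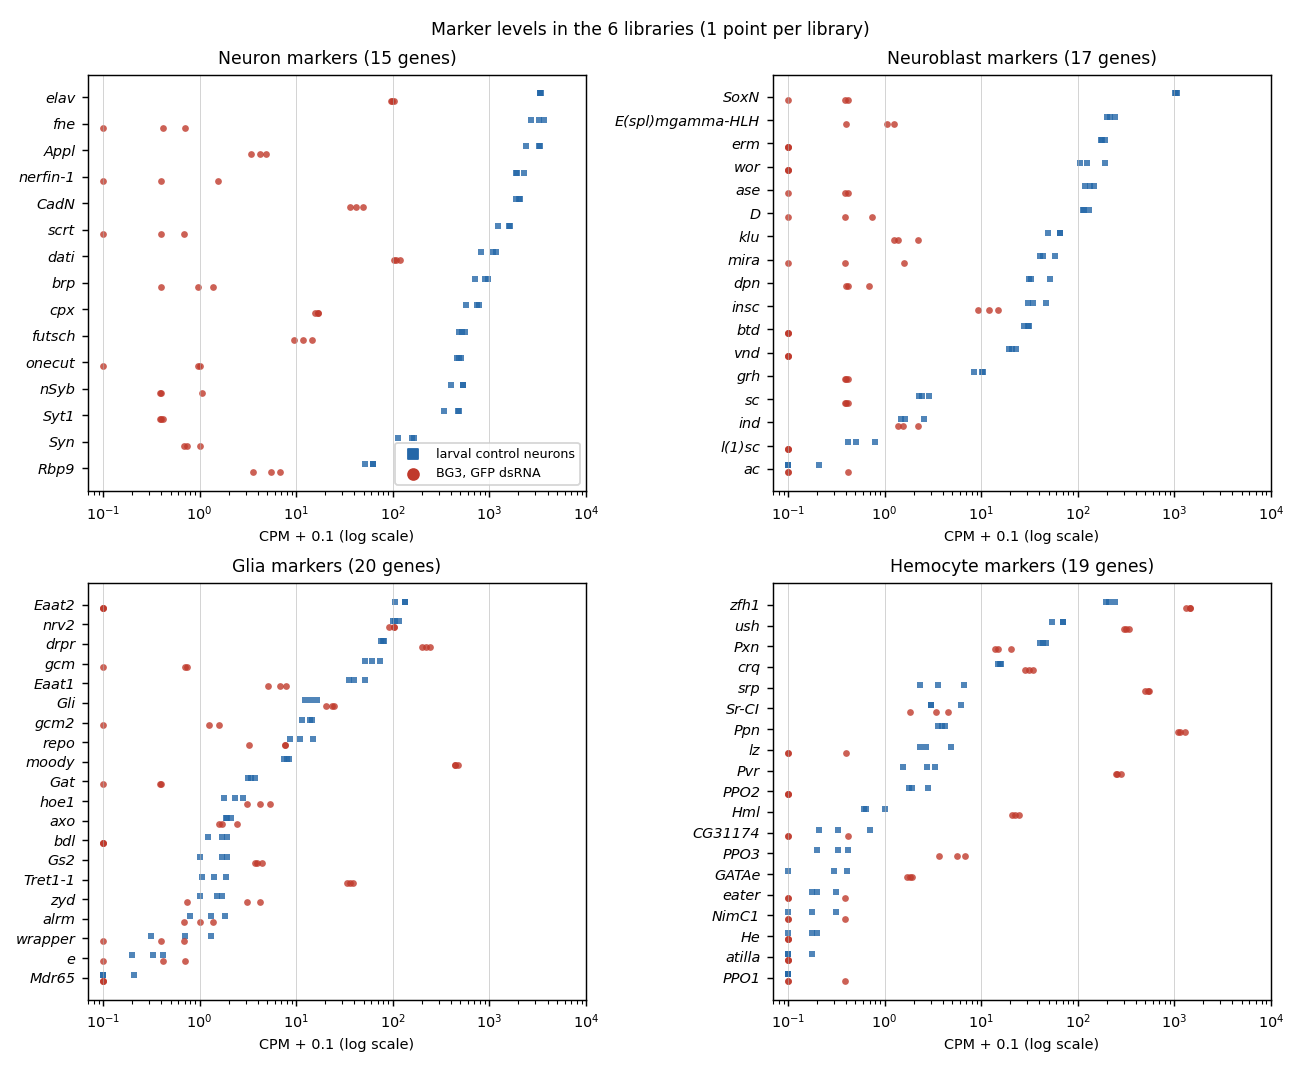
Levels of 15 neuron, 17 neuroblast, 20 glia and 19 hemocyte markers, 1 point per library, on a log axis of CPM + 0.1, with larval control neurons as blue squares and BG3 cells as red circles. Neuron and neuroblast markers separate with BG3 on the low side except for ind and ac, and l(1)sc is near 0 in both kinds of cell. Glial markers show 4 higher and 5 lower of 15 tested. The hemocyte markers high in BG3, such as Ppn, zfh1, srp and ush, stand beside others with almost no count in either kind of cell.

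The release machinery was lower in BG3 for most genes, with a few exceptions. Of 31 genes for synaptic vesicles and active zones, 28 were tested, 24 were lower and none was higher in BG3, with a median log2 fold change of -4.18. Rim, an active-zone scaffold, had no count in BG3 and 372, 515 and 568 CPM in neurons, at least 1563-fold lower against the floor of 3 counts over the 3 BG3 libraries (edgeR adjusted p = 1.87e-07). Cadps, which primes dense-core vesicles, was at 4.21, 4.45 and 3.5 CPM in BG3 and 531, 487 and 499 CPM in neurons (log2 fold change -6.96 with SE 0.13, edgeR adjusted p = 9.66e-18). Syt4, a synaptotagmin, had 1 count in all BG3 libraries together and 355, 415 and 424 CPM in neurons, a ratio of neurons to BG3 of 3896 (95% counting interval 699 to 153900.0). Rab3 and Rbp, both of the active zone, had BG3 means of 0.3 ± 0.292 and 0.403 ± 0.172 CPM against 176 ± 18.7 and 165 ± 15.2 CPM in neurons, and both were lower. Rop, the Sec1/Munc18 protein that also serves secretion outside neurons, was at 65.8, 49.6 and 71.7 CPM in BG3 and 65.8, 70.5 and 62 CPM in neurons, with overlapping groups (log2 fold change -0.08 with SE 0.12, edgeR adjusted p = 0.531). Synj, the lipid phosphatase of endocytosis, was at 89.8, 94.7 and 89.5 CPM in BG3 and 67.7, 68 and 71.8 CPM in neurons, each BG3 library above each larval one by less than the 2-fold minimum (log2 fold change 0.40 with SE 0.09, edgeR adjusted p = 0.000543). unc-13, a vesicle-priming factor singled out after its values were seen, was at 2679, 2688 and 2783 CPM in BG3 and 1380.5, 1551 and 1596 CPM in neurons, a difference under 2-fold (log2 fold change 0.85 with SE 0.09, edgeR adjusted p = 2.08e-07).

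Genes for making, moving and sensing transmitters were almost all lower. Of 17 genes for transmitter synthesis and transport, 13 were tested and all 13 were lower, with a median log2 fold change of -6.91, or -6.08 with genes without a BG3 count at their bound. In all, 13 of the 17 were listed in neurons alone. For most of those tested, a lower call was largely set by the filter on low counts. ChAT and VAChT, which make and load acetylcholine, had BG3 means of 0.106 ± 0.183 and 0.291 ± 0.505 CPM and larval means of 40.1 ± 5.27 and 430.0 ± 29.5 CPM. These genes share a first exon and a strand, so reads can be assigned to either. VGlut, which loads glutamate into vesicles, was lower but still present, at 17.1, 23.2 and 30.3 CPM against 206, 192 and 219.7 CPM in neurons (log2 fold change -3.13 with SE 0.14, edgeR adjusted p = 9.16e-12). The GABA loader VGAT and the choline transporter ChT had 0.0971 ± 0.168 and 0.106 ± 0.183 CPM in BG3 and 42.3 ± 6.05 and 33.2 ± 5.07 CPM in neurons. Of 41 transmitter receptors, 38 were tested and 37 were lower, with a median of -8.36 (-6.65 with bounds). Neurons alone listed 32 of the 41, and the same limit holds for them. The metabotropic receptor GABA-B-R2 was at 1.8, 0.636 and 0.583 CPM in BG3 and 116, 136 and 135 CPM in neurons (log2 fold change -6.98 with SE 0.22, edgeR adjusted p = 5.09e-15). KaiR1D, an ionotropic glutamate receptor, had no count in BG3 and 117, 126 and 124 CPM in neurons, at least 401-fold lower. nAChRalpha5, a nicotinic subunit, was at 68.2, 70.6 and 69.4 CPM in BG3 and 153, 238 and 238 CPM in neurons (log2 fold change -1.59 with SE 0.16, edgeR adjusted p = 2.65e-06). It overlaps NimC4 on the same strand, a gene high in BG3, so its BG3 counts are uncertain. The 1 receptor that was higher, nAChRbeta3, is named here after its values were seen and was at 9.31, 8.26 and 6.12 CPM in BG3 and 0, 0.323 and 0.101 CPM in neurons (log2 fold change 5.79 with SE 0.49, edgeR adjusted p = 6.17e-09).

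Of 26 voltage-gated and related channels, 21 were tested, 20 were lower and 1 was higher, with a median of -6.78. Neurons alone listed 19 of the 26, for which the filter on low counts largely sets the direction. The sodium-leak channel na had BG3 levels of 0.601, 0 and 0.874 CPM and larval levels of 153, 165 and 181 CPM (log2 fold change -8.31 with SE 0.24, edgeR adjusted p = 2.22e-15). Shal, a potassium channel, was at 0.3, 1.27 and 0.291 CPM in BG3 and 62.1, 66.6 and 65.7 CPM in neurons. NaCP60E, a sodium-channel family member, was at 31.8, 35 and 34.1 CPM in BG3 and 105, 126 and 121 CPM in neurons (log2 fold change -1.80 with SE 0.11, edgeR adjusted p = 4.79e-11), and RpL41 and pain, both expressed in BG3, overlap it on the opposite strand. The channel that was higher was the inward rectifier Irk1, singled out after its values were seen, at 62.2, 49.9 and 44.6 CPM in BG3 and 1.46, 1.18 and 1.72 CPM in neurons (log2 fold change 5.14 with SE 0.19, edgeR adjusted p = 7.2e-14). Of 32 neuropeptide precursors, 4 had counts enough to test, with 26 listed in neither kind of cell. ITP, the ion transport peptide, was higher at 123, 139 and 128 CPM in BG3 and 2.99, 5.28 and 4.56 CPM in neurons (log2 fold change 4.95 with SE 0.15, edgeR adjusted p = 3.87e-15). Nplp1 and sNPF had no BG3 count and larval means of 13.9 ± 1.4 and 4.37 ± 0.335 CPM.

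Neuronal transcription factors were mostly lower, with 24 of 27 tested lower and 1 higher among 29, and a median of -8.33 (-5.86 with bounds). Neurons alone listed 18 of the 29. pros, the homeodomain factor that ends neuroblast self-renewal and acts in young neurons, took the largest share of larval counts, 3.75%, at 28337, 40425 and 43609.5 CPM, and was at 9.31, 6.99 and 8.16 CPM in BG3 (log2 fold change -12.16 with SE 0.25, edgeR adjusted p = 3.07e-17). toy, a Pax6 homologue, had means of 0.904 ± 0.284 CPM in BG3 and 418 ± 35.6 CPM in neurons. The LIM-homeodomain factor ap was at 0.3, 0.318 and 0.291 CPM in BG3, 1 count in each library, against 325, 270.2 and 254 CPM in neurons. zfh2 and tup, a zinc-finger homeodomain and a LIM-homeodomain factor, stayed within 2-fold, with means of 167 ± 19.5 and 64 ± 3.44 CPM in BG3 and 291 ± 16.1 and 119.5 ± 10 CPM in neurons (SD, n = 3). Mef2, known both in neurons and as a muscle factor, was higher at 134, 136 and 129 CPM in BG3 against 36.6, 45.2 and 46.8 CPM (log2 fold change 1.64 with SE 0.10, edgeR adjusted p = 1.1e-10).

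Axon guidance and adhesion genes were listed in both kinds of cell for 39 of 49, beside 16 of the 31 synaptic genes. This difference in counts was not tested. Of the 48 guidance and adhesion genes listed in neurons, 39 were also listed in BG3. That share is near the 6470 of 8056 for all genes, so it does not set the list apart. Of the 49, all were tested, 31 were lower, 5 were higher and the median log2 fold change was -1.65. Dscam2, an immunoglobulin-family receptor, was at 0.901, 0.636 and 1.17 CPM in BG3 and 1674, 1941 and 2067 CPM in neurons (log2 fold change -11.00 with SE 0.19, edgeR adjusted p = 5.69e-18). robo3, a receptor for the midline repellent slit, had no BG3 count and 373, 433 and 416 CPM in neurons, at least 1332-fold lower. Nrt, a membrane adhesion protein, had means of 32.8 ± 5.54 CPM in BG3 and 1270.0 ± 108 CPM in neurons. Fas2, a homophilic adhesion molecule of axon bundles, was at 355, 321 and 324 CPM in BG3 and 377, 405 and 407 CPM in neurons, a log2 fold change of -0.25 (SE 0.08). Sema2a, a secreted semaphorin, was at 183, 185 and 217 CPM in BG3 and 201, 196 and 193 CPM in neurons, with overlapping groups (log2 fold change -0.01 with SE 0.09, edgeR adjusted p = 0.902). ImpL2, a secreted insulin-binding protein, was higher at 1092, 1113 and 1167 CPM in BG3 against 3.38, 5.28 and 4.97 CPM (log2 fold change 7.98 with SE 0.14, edgeR adjusted p = 5.69e-18). Among 22 microtubule and cytoskeletal genes, 19 were tested, 6 were lower and 1 higher. Of all tested genes, 30.9% were lower, a share near that of this list, and 25.3% were higher. alphaTub84D and Map205, an alpha-tubulin and a microtubule-binding protein, had BG3 means of 135 ± 8.1 and 623 ± 52.1 CPM and larval means of 128 ± 2.71 and 569 ± 41.7 CPM.

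**Figure D3:**
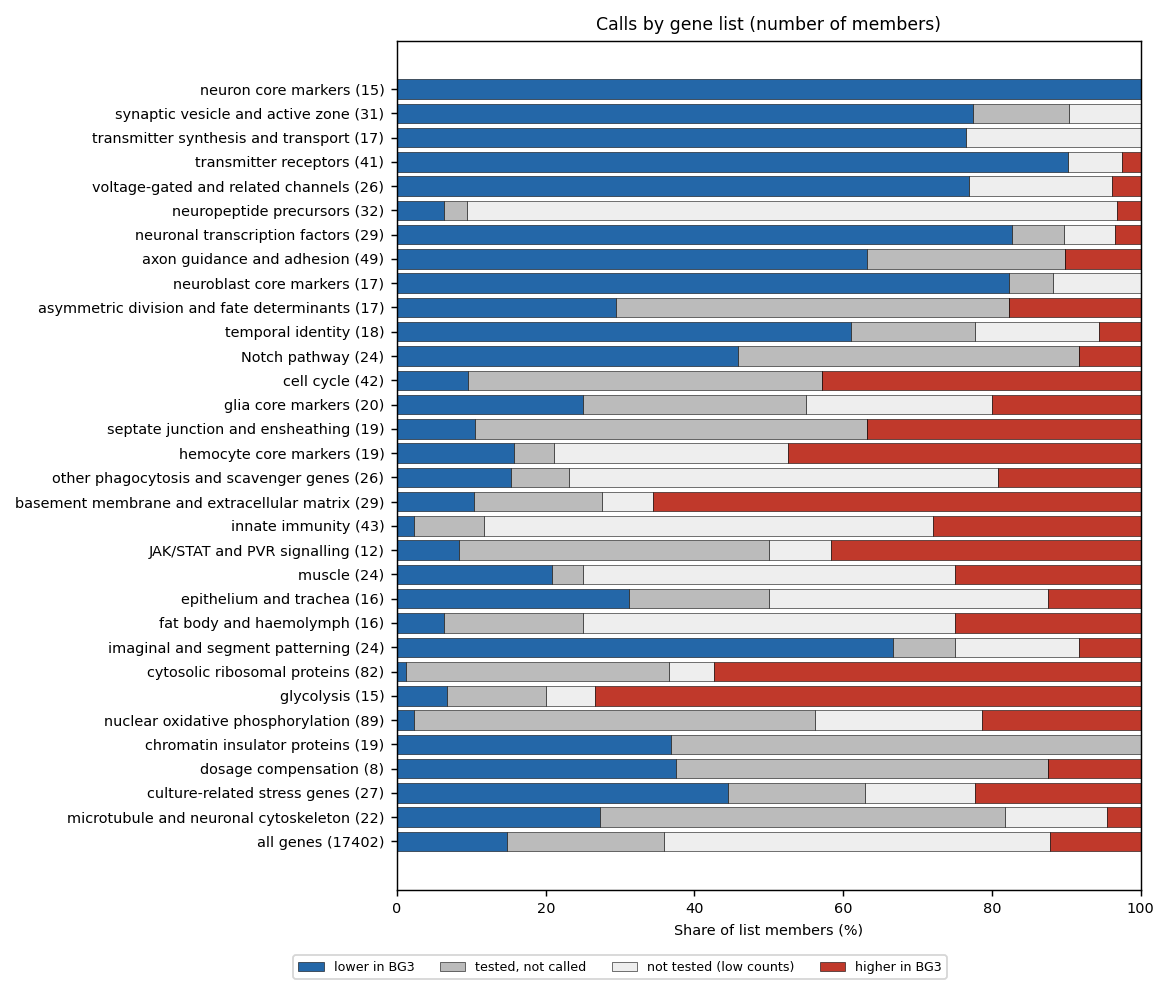
Share of the members of each gene list (horizontal axis, %) that were lower in BG3 (blue), tested without a call (dark grey), not tested for low counts (light grey) or higher in BG3 (red), with the number of members in parentheses and all 17402 genes at the bottom. All 15 neuron core markers and 14 of 17 neuroblast core markers are blue, 28 of 32 neuropeptide precursors are light grey, cell cycle genes are more red than blue with 18 and 4 of 42, and 19 of 29 matrix, 11 of 15 glycolysis and 47 of 82 ribosomal protein genes are red.

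Core neuroblast markers were lower in BG3 for 14 of the 15 tested, and 3 of the 17, insc, klu and ind, were listed in BG3. None was higher, and the median log2 fold change was -8.06 (-6.51 with bounds). Their summed level was 15.3 to 21.6 CPM in BG3 and 2005 to 2264 CPM in the larval libraries. Neurons alone listed 12 of the 17 markers, for which the filter on low counts largely sets the direction. wor, a Snail-family factor, had no count in BG3 and 191, 107 and 125 CPM in neurons, at least 484-fold lower (edgeR adjusted p = 0.000725). ase, a proneural factor of neuroblasts, had 2 BG3 counts in all, 0, 0.318 and 0.291 CPM, against 148, 135 and 118 CPM in neurons, a ratio of neurons to BG3 of 669.5 (95% counting interval 185 to 5530.0). dpn, a bHLH repressor of neuroblasts, was at 0.3, 0.318 and 0.583 CPM in BG3 and 51, 32.4 and 31 CPM in neurons (log2 fold change -6.51 with SE 0.42, edgeR adjusted p = 2.75e-09). Replicate 1 of the larval control was above both other larval libraries for wor, dpn, mira and ase. erm, btd and vnd, known in neuroblast lineages and neural patterning, had no BG3 count and larval means of 181 ± 8.34, 29.7 ± 1.87 and 21.1 ± 1.77 CPM. SoxN and D, Sox-family factors of the neuroectoderm, had BG3 means of 0.203 ± 0.176 and 0.309 ± 0.318 CPM against 1048 ± 24.6 and 121 ± 8.34 CPM. klu, grh and mira had BG3 means of 1.51 ± 0.513, 0.303 ± 0.0134 and 0.598 ± 0.796 CPM against 60.1 ± 9.26, 9.67 ± 1.08 and 47.4 ± 9.54 CPM. E(spl)mgamma-HLH, a Notch-responsive repressor, had 0.806 ± 0.451 CPM against 220.4 ± 21.9 CPM, and the proneural gene sc 0.303 ± 0.0134 against 2.42 ± 0.313 CPM. insc, an adaptor that orients the division spindle, was lower but listed in both, at 14.7, 9.22 and 11.9 CPM against 46.6, 34.7 and 30.8 CPM (log2 fold change -1.64 with SE 0.20, edgeR adjusted p = 1.25e-06). It overlaps sktl on the same strand, a gene at 118 CPM in BG3 and 36.9 CPM in neurons, so its BG3 counts are uncertain. The patterning factor ind was at 2.1, 1.27 and 1.46 CPM in BG3 and 1.38, 2.48 and 1.52 CPM in neurons, with overlapping groups. It overlaps Sytbeta on the same strand, a gene at 0 CPM in BG3 and 6.78 CPM in neurons, so its larval counts are uncertain. l(1)sc and ac had too few counts to test, at means of 0 and 0.106 ± 0.183 CPM in BG3 and 0.473 ± 0.193 and 0.0359 ± 0.0622 CPM in neurons.

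All 17 genes of the asymmetric division machinery were listed in both kinds of cell, beside 3 of the 17 neuroblast markers. This difference in counts was not tested. Of all 8056 genes listed in neurons, 6470 were also listed in BG3. Of the 17, 3 were higher and 5 lower, beside 25.3% and 30.9% of all tested genes, and the median log2 fold change was -0.10. The adaptor pins was at 94, 89.3 and 109 CPM in BG3 and 114.9, 97.9 and 99.7 CPM in neurons, with overlapping groups (log2 fold change -0.10 with SE 0.10, edgeR adjusted p = 0.38). Galphai, the G-protein subunit that pins binds, was at 103.6, 85.2 and 101 CPM in BG3 and 99.7, 70.5 and 66.7 CPM in neurons (log2 fold change 0.29 with SE 0.14, edgeR adjusted p = 0.081). brat, a translational repressor segregated to the differentiating daughter, was lower at 462, 431 and 446 CPM in BG3 against 6333, 6539 and 7256 CPM (log2 fold change -3.91 with SE 0.11, edgeR adjusted p = 1.6e-15). stau, an RNA carrier, and the kinesin Khc-73 were lower too, with BG3 means of 179.9 ± 9.84 and 160.1 ± 14.9 CPM against 447 ± 23.8 and 505 ± 3.79 CPM. loco, a regulator of G-protein signalling also known in glia, was higher at 188, 171 and 175 CPM in BG3 against 43.7, 34.5 and 31.7 CPM (log2 fold change 2.27 with SE 0.11, edgeR adjusted p = 3.17e-12). With the trend of log2 fold change on exonic length removed and the adjusted p kept, 2 of the 17 were lower in place of 5.

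Temporal factors, which give neuroblasts and their progeny an age, were listed in both kinds of cell for 6 of 18 and in neurons alone for 9. Of the 18, 15 were tested, 11 were lower and 1 was higher, with a median of -7.45 (-3.46 with bounds). Syp, an RNA-binding protein of late neuroblasts, was at 1427, 1371 and 1444 CPM in BG3 and 1567, 1621 and 1665 CPM in neurons, close to 1:1 (log2 fold change -0.19 with SE 0.09, edgeR adjusted p = 0.0458). Eip93F, a late ecdysone-induced factor, was at 888, 946 and 862 CPM in BG3 and 979, 1009 and 1108 CPM in neurons (log2 fold change -0.20 with SE 0.09, edgeR adjusted p = 0.0427). chinmo, a factor of early-born neurons, was at 0.601, 0.318 and 0.583 CPM in BG3 and 1429, 1881 and 1864 CPM in neurons (log2 fold change -11.69 with SE 0.22, edgeR adjusted p = 1.03e-17). svp and slp2, a switching factor of the embryonic series and one of the optic lobe series, had 1 BG3 count each and larval means of 64.7 ± 3.06 and 112 ± 16.2 CPM. mamo, a zinc-finger factor of young neurons, was lower but listed in both, at 324, 329 and 319 CPM in BG3 and 2186, 3100.1 and 3149.7 CPM in neurons.

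The Notch pathway, which separates sibling fates in these lineages, had 24 genes on its list. All were tested, 11 were lower and 2 higher, beside 30.9% and 25.3% of all tested genes, with a median of -0.57. The entries for the ligand Delta and for Psn did not match and are not among the 24. Delta, tested under its full name, had a log2 fold change of -2.99. kuz, the protease that activates Notch, was at 486, 507 and 462 CPM in BG3 and 461, 477 and 490.2 CPM in neurons, with overlapping groups (log2 fold change 0.03 with SE 0.08, edgeR adjusted p = 0.76). Su(dx), a ubiquitin ligase of the pathway, had means of 112 ± 7 CPM in BG3 and 123 ± 7.45 CPM in neurons. The E(spl) complex gene E(spl)m6-BFM was at 0.3, 0.318 and 0 CPM in BG3 and 261, 239.7 and 267 CPM in neurons, a ratio of neurons to BG3 of 1271 (95% counting interval 352 to 10490.0). E(spl)malpha-BFM was at 2.4, 2.22 and 2.62 CPM in BG3 and 63.8, 55.9 and 55.8 CPM in neurons (log2 fold change -4.59 with SE 0.18, edgeR adjusted p = 1.43e-13). spdo, which traffics Notch in asymmetric division, was lower with means of 3.24 ± 0.538 CPM in BG3 and 101 ± 11 CPM in neurons. fng, the glycosyltransferase that tunes Notch to its ligands, was higher at 93.7, 101 and 106 CPM in BG3 against 4.53, 4.09 and 3.85 CPM (log2 fold change 4.57 with SE 0.13, edgeR adjusted p = 1.12e-15). The count of higher genes was 4 with upper-quartile scaling and 6 with the length trend removed.

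Cell cycle genes were listed in both kinds of cell for 41 of 42, and 18 were higher and 4 lower in BG3, with a median of 0.74. For all tested genes the shares were 25.3% higher and 30.9% lower. Of all 8056 genes listed in neurons, 6470 were listed in BG3 as well. The ribonucleotide reductase subunits RnrL and RnrS, which make DNA precursors, were both higher, RnrL at 114, 116 and 123 CPM in BG3 and 20.1, 15.4 and 16.6 CPM in neurons (log2 fold change 2.75 with SE 0.11, edgeR adjusted p = 2.32e-13). PCNA, the sliding clamp of replication, was at 66.1, 64.8 and 73.7 CPM in BG3 and 17, 13.2 and 12.9 CPM in neurons (log2 fold change 2.24 with SE 0.13, edgeR adjusted p = 2.33e-11). fzr, which drives exit from mitosis, was lower at 51.7, 53.1 and 44.3 CPM in BG3 against 198, 208 and 204 CPM (log2 fold change -2.04 with SE 0.10, edgeR adjusted p = 1.45e-12). The mitotic cyclin CycA was at 106, 92.2 and 114.5 CPM in BG3 and 124, 93.4 and 90 CPM in neurons, with overlapping groups (log2 fold change 0.02 with SE 0.12, edgeR adjusted p = 0.866). Cdk1, its kinase partner, was at 28.2, 18.4 and 30.3 CPM in BG3 and 33.6, 23.3 and 23.2 CPM in neurons. Upper-quartile scaling left 2 of the 4 lower genes called.

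Of 20 glial markers, 15 were tested, 4 were higher and 5 lower, with a median log2 fold change of -0.04. These counts are near the shares of all tested genes, 25.3% higher and 30.9% lower, so they set the list apart in neither direction. The summed level was 815 to 887 CPM in BG3 and 465 to 496 CPM in the larval libraries. The higher BG3 sum rests on 1 gene, moody, whose levels are given below. repo, the factor that defines most glia, was at 7.51, 3.18 and 7.58 CPM in BG3 and 15, 8.51 and 10.8 CPM in neurons, and its fold change of -0.91 (log2, SE 0.30) was under the 2-fold minimum (edgeR adjusted p = 0.0105). Replicate 2 was the lowest library of both groups, and the groups did not overlap. Without BG3 replicate 1, BG3 replicate 3 or larval replicate 2, the log2 fold change of repo was -1.06, -1.09 and -1.10 and the gene was called lower. gcm and gcm2, which start glial fate, were lower, gcm at 0.601, 0.636 and 0 CPM in BG3 and 74, 50.9 and 60.6 CPM in neurons (log2 fold change -7.20 with SE 0.34, edgeR adjusted p = 1.59e-11) and gcm2 with means of 0.889 ± 0.788 and 13.3 ± 1.62 CPM. moody, a receptor of the blood-brain barrier, was higher in BG3, at 445, 437 and 478 CPM against 7.44, 8.4 and 8.01 CPM (log2 fold change 5.84 with SE 0.10, edgeR adjusted p = 6.27e-18). drpr, the engulfment receptor shared by glia and hemocytes, was higher at 243, 202 and 219.7 CPM against 81.1, 80 and 74.8 CPM (log2 fold change 1.49 with SE 0.09, edgeR adjusted p = 5.32e-11). The sugar transporter Tret1-1 was higher at 36, 39.1 and 33.2 CPM against 1.76, 0.969 and 1.32 CPM, and glutamine synthetase Gs2 was higher with means of 3.93 ± 0.396 and 1.46 ± 0.477 CPM. The transmitter transporters were lower, with Eaat2 without a BG3 count against 105, 135 and 134 CPM, Eaat1 with means of 6.48 ± 1.44 and 42.1 ± 8.86 CPM and Gat with 0.197 ± 0.171 and 3.33 ± 0.311 CPM. nrv2, a sodium pump subunit, was at 103, 90.3 and 104.03 CPM in BG3 and 116, 105 and 101 CPM in neurons (log2 fold change -0.12 with SE 0.09, edgeR adjusted p = 0.252). Gli, axo, zyd and hoe1 were tested without a call, with BG3 means of 22.8 ± 2.41, 1.81 ± 0.456, 2.57 ± 1.76 and 4.13 ± 1.12 CPM against 14.2 ± 2.05, 1.87 ± 0.137, 1.31 ± 0.358 and 2.2 ± 0.503 CPM. The astrocyte gene alrm and the markers wrapper, e, bdl and Mdr65 had too few counts to test, with BG3 means of 0.918 ± 0.344, 0.294 ± 0.291, 0.306 ± 0.301, 0 and 0 CPM. Their larval means were 1.21 ± 0.516, 0.682 ± 0.504, 0.218 ± 0.111, 1.52 ± 0.366 and 0.0359 ± 0.0622 CPM.

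The septate junction and ensheathing list, known from glia and epithelia, had 19 genes, all tested, with 7 higher, 2 lower and a median of 0.72. For all tested genes the shares were 25.3% higher and 30.9% lower. nrv1, a sodium pump subunit, was at 241, 242 and 242 CPM in BG3 and 2.76, 1.94 and 2.43 CPM in neurons (log2 fold change 6.63 with SE 0.13, edgeR adjusted p = 1.12e-17). pnt, an ETS factor of receptor signalling used in glia and elsewhere, was at 449, 459.9 and 433 CPM in BG3 and 24.7, 29.1 and 24.3 CPM in neurons (log2 fold change 4.11 with SE 0.10, edgeR adjusted p = 1.5e-16). Nrx-IV, a septate junction receptor, was lower at 84.4, 74.4 and 86 CPM in BG3 against 437, 371 and 382 CPM (log2 fold change -2.28 with SE 0.10, edgeR adjusted p = 3.36e-13). Ndae1 and pck, an anion exchanger and a claudin, had means of 30.9 ± 1.07 and 13.7 ± 1.94 CPM in BG3 and 28.9 ± 3.09 and 12.6 ± 1.68 CPM in neurons.

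Part of the hemocyte programme was high in BG3. Of 19 core hemocyte markers, 13 were tested, 9 were higher and 3 lower, with a median log2 fold change of 2.71. The other 6 had too few counts to test. For the 3 listed in BG3 alone, the filter on low counts largely sets the direction. The sum of the 19 was 3649 to 3947 CPM in BG3 and 335 to 399 CPM in the larval libraries. Most of the BG3 sum came from zfh1 and Ppn, whose levels are given below. srp (FBgn0003507, chromosome 3R from 15986152 to 16004085), the GATA factor of blood and fat body, was at 540.1, 543 and 497 CPM in BG3 and 2.22, 6.57 and 3.45 CPM in neurons (log2 fold change 7.07 with SE 0.26, edgeR adjusted p = 2.49e-08). ush, its zinc-finger cofactor, was at 336, 303 and 314 CPM in BG3 and 54.5, 70.3 and 71.1 CPM in neurons (log2 fold change 2.29 with SE 0.10, edgeR adjusted p = 9.18e-13). zfh1, also known in mesoderm and glia, was at 1457, 1466 and 1329 CPM in BG3 and 209.6, 244 and 195 CPM in neurons. Every BG3 library was above every larval library for these 3 factors. Ppn, a matrix protein secreted by hemocytes, was at 1278, 1086 and 1152 CPM in BG3 and 3.45, 4.09 and 3.85 CPM in neurons (log2 fold change 8.27 with SE 0.13, edgeR adjusted p = 4.75e-18). Pvr, the PDGF and VEGF receptor of hemocytes and glia, was at 254, 248 and 282 CPM in BG3 and 1.46, 3.23 and 2.64 CPM in neurons (log2 fold change 6.79 with SE 0.17, edgeR adjusted p = 1.04e-15). Hml, a clotting protein of plasmatocytes, was at 24.3, 22.2 and 20.7 CPM in BG3 and 0.921, 0.538 and 0.507 CPM in neurons (log2 fold change 5.01 with SE 0.25, edgeR adjusted p = 3.6e-12). The engulfment receptor crq was at 28.2, 34.6 and 31.5 CPM in BG3 and 15, 15.7 and 15.9 CPM in neurons, just past the 2-fold minimum (log2 fold change 1.02 with SE 0.13, edgeR adjusted p = 1.39e-06). It overlaps ex on the opposite strand, a gene at 195 CPM in BG3 and 35.5 CPM in neurons, so its BG3 counts are uncertain. Without BG3 replicate 2 the log2 fold change of crq was 0.96 and without larval replicate 1 it was 0.97, and the gene was then not called. PPO3, a phenoloxidase, and GATAe, known from the gut, were higher at BG3 means of 5.27 ± 1.55 and 1.71 ± 0.111 CPM against 0.218 ± 0.111 and 0.17 ± 0.156 CPM.

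Other defining hemocyte genes were at or near 0 in both kinds of cell. He and atilla had no BG3 count, eater, NimC1 and PPO1 had 1 count each in all BG3 libraries together, and CG31174 also had 1. None of these 6 was tested, and their larval means were 0.0594 ± 0.0529, 0.0256 ± 0.0443, 0.131 ± 0.074, 0.0974 ± 0.109, 0 and 0.315 ± 0.261 CPM. The crystal-cell genes lz and PPO2 were lower in BG3, lz at 0.3, 0 and 0 CPM against 2.22, 2.58 and 4.76 CPM and PPO2 without a BG3 count against 1.69, 1.83 and 2.74 CPM. Pxn, a peroxidase of the matrix, was lower at 20.4, 14.9 and 13.7 CPM in BG3 against 40.5, 43.3 and 46.3 CPM (log2 fold change -1.40 with SE 0.15, edgeR adjusted p = 8.7e-08). The scavenger receptor Sr-CI was at 3.3, 4.45 and 1.75 CPM in BG3 and 2.92, 6.14 and 2.94 CPM in neurons, with overlapping groups. With any 1 larval replicate left out, 7827 to 7829 genes passed the filter on low counts and 1 of the 3 lower markers was called.

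Basement membrane and matrix genes were high in BG3 as a group, with a summed level of 10378 to 11346 CPM against 1815 to 1952 CPM in the larval libraries. Of 29 genes, 27 were tested, 19 were higher and 3 lower, and the median log2 fold change was 2.27. BG3 alone listed 4 of the 29. LanA (FBgn0002526, chromosome 3L from 6203831 to 6218022), the laminin alpha chain, was at 2641, 2381 and 2536 CPM in BG3 and 4.53, 3.23 and 4.56 CPM in neurons (log2 fold change 9.24 with SE 0.15, edgeR adjusted p = 4.75e-18). vkg, a type IV collagen chain, was at 527, 483 and 491 CPM in BG3 and 0.307, 0.754 and 0.608 CPM in neurons (log2 fold change 9.84 with SE 0.16, edgeR adjusted p = 4.75e-18). LanB2, the laminin gamma chain, was at 584, 570.2 and 591 CPM in BG3 and 12.1, 10 and 11.2 CPM in neurons (log2 fold change 5.70 with SE 0.10, edgeR adjusted p = 6.27e-18). The levels per length of LanA and vkg in BG3 were 216 and 77 RPKM. The proteoglycans Sdc and dlp had means of 441 ± 15.9 and 52 ± 7.85 CPM in BG3 and 470.0 ± 88.2 and 67.4 ± 6.71 CPM in neurons and were not called. Ppn and Pxn stand on both the matrix and the hemocyte list.

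Of 26 phagocytosis and scavenger genes, 11 were tested, 5 were higher and 4 lower, beside 25.3% and 30.9% of all tested genes. Tep4, a thioester protein, was at 294, 264 and 289 CPM in BG3 and 4.68, 4.52 and 4.97 CPM in neurons (log2 fold change 5.90 with SE 0.11, edgeR adjusted p = 1.09e-17). NimC4, an engulfment receptor, was at 38.8, 43.2 and 31.8 CPM in BG3 and 0.153, 0.754 and 0.912 CPM in neurons (log2 fold change 6.03 with SE 0.29, edgeR adjusted p = 5.33e-12). pes, a CD36-family receptor, had means of 103 ± 8.87 CPM in BG3 and 6.98 ± 0.601 CPM in neurons. Of the 43 innate immunity genes, 17 were tested, 12 were higher and 1 lower, and 24 were listed in neither kind of cell. spz, the ligand of Toll, was at 149, 167 and 135 CPM in BG3 and 1.69, 1.83 and 1.93 CPM in neurons (log2 fold change 6.37 with SE 0.15, edgeR adjusted p = 9.34e-17), while its receptor Tl was lower at 18.6, 15.9 and 20.7 CPM against 211, 205 and 202 CPM (log2 fold change -3.48 with SE 0.11, edgeR adjusted p = 6.73e-15). The NF-kappaB factors dl and Rel were higher, with BG3 means of 55.2 ± 3.21 and 69.3 ± 0.728 CPM against 1.74 ± 0.314 and 7.37 ± 0.745 CPM. cact, the inhibitor of dl, was at 106, 93.4 and 103 CPM in BG3 and 95.3, 99.4 and 90.6 CPM in neurons, with overlapping groups. Among 12 genes of JAK/STAT and PVR signalling, 11 were tested, 5 were higher and 1 lower. The Pvr ligands Pvf1 and Pvf2 were higher, Pvf2 at 134, 174 and 132 CPM in BG3 and 0.307, 0.538 and 0.203 CPM in neurons (log2 fold change 8.67 with SE 0.21, edgeR adjusted p = 2.88e-16), and Pvf3 was lower with means of 7.39 ± 0.759 and 58.8 ± 1.94 CPM. The cytokine receptor dome had means of 110.2 ± 6.71 CPM in BG3 and 125 ± 4.92 CPM in neurons.

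Muscle, epithelial and patterning genes were examined as further cell types, beside shares of 25.3% higher and 30.9% lower for all tested genes. Of 24 muscle genes, 12 were tested, 6 were higher and 5 lower. Zasp52, an actinin-binding protein of adhesion sites and Z discs, was at 516, 559.7 and 505 CPM in BG3 and 1.07, 1.51 and 1.72 CPM in neurons (log2 fold change 8.54 with SE 0.14, edgeR adjusted p = 4.75e-18), and the actin gene Act57B had means of 367 ± 13.9 and 1.42 ± 0.86 CPM. Of 16 epithelial and tracheal genes, 10 were tested, 2 were higher and 5 lower. The E-cadherin gene shg was at 144, 147 and 172 CPM in BG3 and 158, 143 and 122 CPM in neurons (log2 fold change 0.13 with SE 0.10, edgeR adjusted p = 0.248). Of 24 patterning genes, 20 were tested, 16 were lower and 2 higher, with a median of -6.57 (-4.77 with bounds). ci, the effector of Hedgehog signalling, was higher at 421, 374 and 431 CPM in BG3 against 31.5, 30.5 and 30 CPM (log2 fold change 3.74 with SE 0.09, edgeR adjusted p = 2.88e-16), and the receptor ptc had means of 113 ± 14.8 CPM in BG3 and 113 ± 6.08 CPM in neurons. The trunk factor tsh and the head factor oc were lower, tsh with means of 15.1 ± 2.33 and 114 ± 13.1 CPM and oc with 0.106 ± 0.183 and 129 ± 4.29 CPM.

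The 10 largest differences in each direction were taken by fitted fold change among called genes with a mean of at least 5 CPM in the higher group, an order that depends on the prior count where a group has few counts. lncRNA:cherub (FBgn0262972, chromosome 3R from 11247631 to 11256123), a long noncoding RNA known from neuroblasts and their tumours, had the largest fall, with 0.601, 0.636 and 0 CPM in BG3 and 26013, 40386 and 37413 CPM in neurons (log2 fold change -16.32 with SE 0.35, edgeR adjusted p = 3.73e-16). Ggamma30A, a G-protein subunit, had no BG3 count and 548, 795 and 834 CPM in neurons, at least 2335-fold lower. w had no BG3 count and 855, 842 and 782 CPM in neurons, and reads from the marker copy on a transgene cannot be told apart from the gene's own. CG43737, CG34377, CG14989, 2mit and CG13293, with Rim and robo3, made up the 10 and had no BG3 count. CG14989 overlaps Gad1 on the opposite strand, so its larval counts are uncertain. Among the rises, Arc1, whose capsid-like protein carries RNA between cells, took 1.72% of BG3 counts at 18169.7, 15961 and 17399 CPM against 5.98, 3.45 and 4.26 CPM in neurons (log2 fold change 11.84 with SE 0.21, edgeR adjusted p = 5.69e-18). CR10102, a pseudogene next to Arc1, was at 68.8, 269 and 317 CPM in BG3 with no larval count, at least 2341-fold higher, and its BG3 libraries differed from each other more than those of the other 9 genes (edgeR adjusted p = 0.025). Without BG3 replicate 2 or replicate 3, CR10102 was no longer called. pnr, a GATA factor of dorsal patterning and the heart, was at 408, 388 and 409 CPM in BG3 with 1 larval count in all, a ratio of BG3 to neurons of 12930.0 (95% counting interval 2320.0 to 511000.0). CG1092, Karl and CG9411 also had 1 larval count each, with BG3 means of 659 ± 23, 398 ± 34.7 and 215 ± 23.5 CPM. Tsp42Ed, CG9360, AOX1 and Cyp6a20 had none, with BG3 means of 83.4 ± 6.31, 68.9 ± 9.98, 43.9 ± 2.49 and 38 ± 3.7 CPM.

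Genes of growth and metabolism on 3 lists were mostly higher or not called. Of 15 glycolysis genes, 14 were tested, 11 were higher and 1 lower, with a median of 2.05. Ldh, lactate dehydrogenase, was at 177, 195 and 183 CPM in BG3 and 1.38, 2.26 and 0.811 CPM in neurons (log2 fold change 6.96 with SE 0.17, edgeR adjusted p = 3.18e-16). PyK, pyruvate kinase, was at 343, 399 and 384 CPM in BG3 and 23.1, 31.1 and 26.2 CPM in neurons (log2 fold change 3.81 with SE 0.11, edgeR adjusted p = 2.52e-15). Of 82 cytosolic ribosomal proteins, 77 were tested, 47 were higher and 1 lower. Of 89 nuclear genes for oxidative phosphorylation, 69 were tested, 19 were higher and 2 lower. The share of higher genes on the oxidative phosphorylation list was near the 25.3% of all tested genes. Called genes that were higher had a median exonic length of 1.78 kb and those that were lower 3.15 kb. With the trend of log2 fold change on exonic length removed and the adjusted p kept, 12 ribosomal protein genes and 4 oxidative phosphorylation genes were higher. The 11 glycolysis genes stood at 11.

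Heat shock genes were high in the sorted neurons. Of 12 heat shock genes, 11 were tested and all 11 were lower in BG3, with a median of -3.32. Hsp27, a small heat shock protein, was at 336, 416 and 488 CPM in BG3 and 4381, 3690.3 and 4316 CPM in neurons (log2 fold change -3.32 with SE 0.13, edgeR adjusted p = 4.74e-13), and Hsp67Ba at 12, 12.7 and 17.8 CPM in BG3 and 465, 479.7 and 533 CPM in neurons. Scaled over all 18 libraries, the summed heat shock level was 16465 to 18014 CPM in larval control neurons, 11413 to 14745 CPM in pupal control neurons and 2089 to 2747 CPM in BG3, so both sorted groups stood above the cultured cells. The constitutive chaperones Hsc70-3 and Hsc70-4 had BG3 means of 964 ± 43.8 and 3103 ± 151 CPM and larval means of 1101 ± 34.5 and 2689.8 ± 151 CPM. GstD1, a detoxifying transferase, and Xbp1, a factor of the unfolded protein response, were higher in BG3, with means of 159 ± 19 and 1150.3 ± 105 CPM against 4.31 ± 0.47 and 234 ± 15.2 CPM. The part of handling in these differences was not tested.

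**Figure D4:**
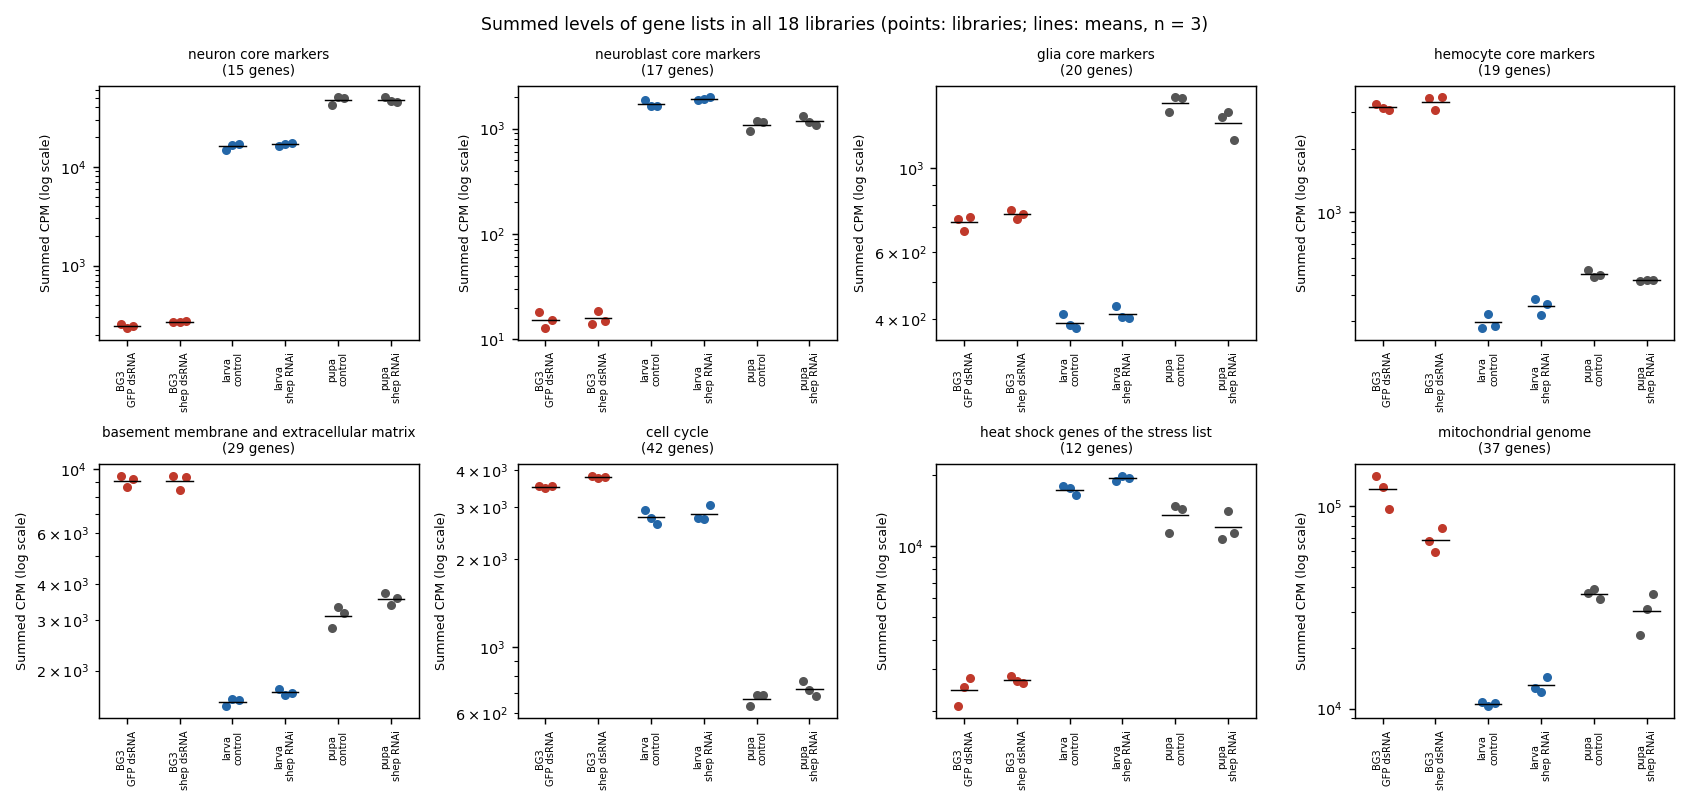
Summed CPM of 8 gene lists (vertical, log scale, scaled over all 18 libraries) in each library of the 6 groups, with a line at the group mean (n = 3). BG3 stands apart from all neuron groups for neuron, neuroblast, hemocyte, matrix, heat shock and mitochondrial genes, and the glial sum of 682 to 744 CPM in BG3 lies between the larval control sum of 378 to 411 CPM and the pupal control sum of 1400 to 1535 CPM.

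The pupal neurons of the study give a further point of reference. On the scale of all 18 libraries, the neuron marker sum was 233 to 258 CPM in BG3, 14771 to 17213 CPM in larval controls and 42168 to 50721 CPM in pupal controls. The neuroblast marker sum was 12.8 to 18 CPM in BG3, 1631 to 1876 CPM in larval and 940 to 1179 CPM in pupal controls. BG3 was below both stages for both lists. The hemocyte sum was 3060 to 3288 CPM in BG3, 278 to 326 CPM in larval and 489 to 526 CPM in pupal controls, and the cell cycle sum was 3481 to 3537, 2625 to 2939 and 631 to 689 CPM in the same order.

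Chromatin insulator proteins, the complexes that shep acts on, and dosage compensation genes were also compared. Of 19 insulator genes, all tested, 7 were lower and none was higher, beside 30.9% and 25.3% of all tested genes. shep was among the 7 (log2 fold change -2.08 with SE 0.10, edgeR adjusted p = 1.83e-12). Chro, a chromodomain protein of insulators, was at 123, 121 and 124 CPM in BG3 and 604, 543 and 513 CPM in neurons (log2 fold change -2.17 with SE 0.09, edgeR adjusted p = 2.13e-13), and mod(mdg4), an insulator subunit, had means of 234 ± 19.4 CPM in BG3 and 1041 ± 34.1 CPM in neurons. Ibf1 and AGO2 had means of 8.47 ± 0.451 and 324 ± 5.06 CPM in BG3 and 9.94 ± 1.67 and 396 ± 34.1 CPM in neurons. The noncoding RNAs that guide dosage compensation to the male X were found in opposite amounts. lncRNA:roX1 was at 1.2, 2.54 and 1.75 CPM in BG3 and 161, 123 and 113 CPM in neurons (log2 fold change -6.18 with SE 0.23, edgeR adjusted p = 8.34e-13), and lncRNA:roX2 was at 198, 414 and 277 CPM in BG3 and 0.844, 0.646 and 0.507 CPM in neurons (log2 fold change 8.72 with SE 0.47, edgeR adjusted p = 6.8e-06). msl-2, the limiting protein of the complex, was at 49.6, 37.2 and 47.8 CPM in BG3 and 47.4, 40.4 and 46.8 CPM in neurons, with overlapping groups.

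The values by chromosome arm were examined after the other results had been seen. Of 109 genes on chromosome 4, a small and largely heterochromatic chromosome, 86 were tested, 54 (62.8%) were lower and 11 (12.8%) higher in BG3, with a median log2 fold change of -1.54. On the other chromosomes 30.7% of 8129 tested genes were lower and the median was -0.14. Among genes listed in both kinds of cell, the median was -1.04 over 62 genes of chromosome 4 and 0.04 over 6287 tested genes elsewhere. Genes of chromosome 4 had a median span of 9.20 kb, and those elsewhere 2.99 kb. After shep depletion of both kinds of cell, 54 of 86 tested genes of chromosome 4 were again lower, with a median of -1.41. The copy number of chromosome 4 was not measured in these cells, and its part in these values was not tested. The genes of an arm are not independent of each other, and no test of the arm was made.

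**Figure D5:**
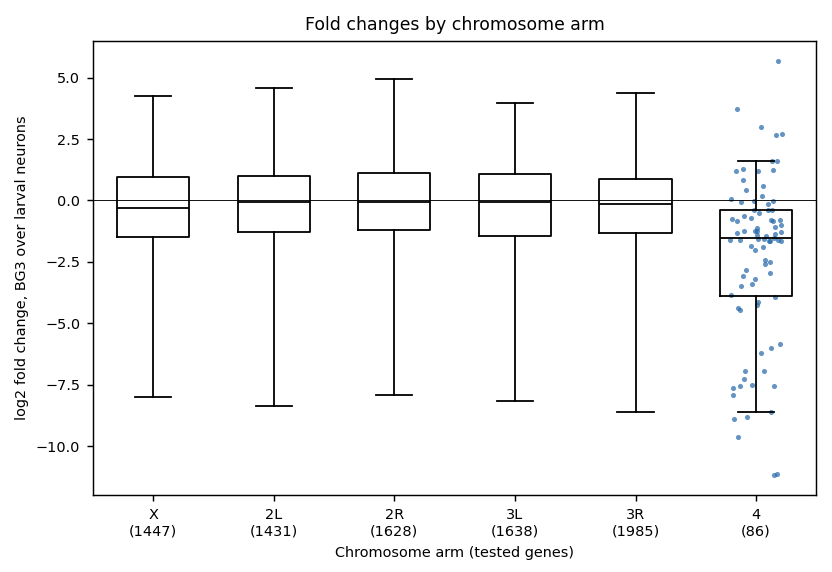
Log2 fold change of BG3 over larval control neurons (vertical) for the tested genes of each chromosome arm (horizontal, number of tested genes in parentheses), with boxes at the quartiles, black lines at the medians, whiskers at the 5th and 95th percentiles and the genes of chromosome 4 as points. The median of chromosome 4 is -1.54, and that of X is -0.32.

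The comparison after shep depletion used 6 other libraries, with 8473 genes tested, 2172 (25.6%) higher and 2550 (30.1%) lower, 55.7% of those tested. At the adjusted p alone 86.8% were called, 41.0% higher and 45.9% lower, and the groups did not overlap in 87.1%. In it, 14 of 15 tested neuroblast markers and 24 of 28 tested synaptic genes were lower. Of 19 hemocyte markers 13 were tested and 9 were higher, and of 29 matrix genes 27 were tested and 20 were higher. The filter on low counts limits these directions as in the control libraries. Of 15 tested glial markers 5 were higher and 5 lower, beside 25.6% and 30.1% of all tested genes. The log2 fold change was -4.98 for elav, 5.69 for moody, 6.26 for srp and 9.35 for LanA, beside -5.09, 5.84, 7.07 and 9.24 in the control libraries. shep dsRNA and shep RNAi are different treatments, so these libraries are not replicates of the controls.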

How the data were processed

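RNA-seq libraries of total RNA, made with a fragmentation and Nugen Ovation protocol per the labels' protocols, were read from 1 deposited table of gene counts. Reads had been trimmed with cutadapt 1.10, aligned with HISAT2 2.0.4 to dm6 and counted with featureCounts 1.5.0-p3, per the submitters' processing notes, and the deposited values are raw counts per gene. The sources used here do not give the strand setting, the annotation release or the treatment of reads that map to several places, so overlapping and near-identical genes are uncertain. The 17402 gene identifiers were matched to an Ensembl annotation of the same assembly, in which 17210 were found, for names, positions, exonic lengths and overlaps. Of the entries in the gene lists 684 matched by symbol, 13 by synonym and 171 by name pattern, and 31 did not match. Unmatched entries, among them Delta and Psn (Notch), para (channels) and trol (matrix), are missing from the list counts. The members and the lists were chosen with earlier results of these data known.

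Of the 18 libraries, 3 of BG3 with GFP dsRNA and 3 of larval control neurons, grouped by title, were scaled by TMM and tested after edgeR's filter on low counts with edgeR's quasi-likelihood test, with 4 residual degrees of freedom and Benjamini-Hochberg adjustment over all tested genes. Calls needed an adjusted p under 0.05 and a log2 fold change of at least 1 in size. The fit was tested on simulated data first. A group without a count was given a floor of 3 counts over its 3 libraries, 0.303 CPM for BG3 and 0.0932 CPM for larval neurons. Ratios for groups of 1 to 3 counts carry exact 95% intervals for counting error only, since reads without molecular identifiers are not independent molecules. Totals of 3141100 to 12910603 counts set this precision. RPKM is CPM divided by exonic length.

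Genes were named by a rule: shep, Dcr-2, w and the roX RNAs as checks, the 10 largest rises and falls with a mean of at least 5 CPM in the higher group and no overlap between groups, every neuron, neuroblast, glia and hemocyte core marker, and from each other list the called members with the smallest p and the members listed in both groups with the smallest change. Exceptions are stated where they occur. Alternatives covered scaling, tool, filter, threshold, replicate block, depth, library content and each library left out, with DESeq2 1.42.0 and limma 3.58.1 beside edgeR 4.0.16 in R 4.3.3. Tables were joined and figures drawn in Python 3.11.15 with pandas 2.3.3 and matplotlib 3.10.9. The series' pupal neurons were used for summed levels only.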

Additional observations from a re-analysis of the deposited data

Results flagged for a closer look

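The difference between BG3 and larval neurons was itself compared between the control and the shep-depleted libraries, in a fit of 12 libraries over 8825 genes. At an edgeR adjusted p under 0.05 the difference was more positive after depletion for 6 genes and more negative for 8. Of the genes named by the rule, 2 were among them. For pes, the CD36-family receptor, the log2 fold change of BG3 over neurons was 3.87 in the control and 4.91 in the depleted libraries, a difference of 0.98 (SE 0.19, edgeR adjusted p = 0.0177). For futsch, the microtubule-associated protein, it was -5.46 in the control and -4.55 in the depleted libraries, a difference of 0.85 (SE 0.16, edgeR adjusted p = 0.0177). Both kept their direction in both comparisons. Outside the rule and chosen after its value was seen, daw, an activin-family ligand, had a difference of -8.59 (SE 0.29, edgeR adjusted p = 5.42e-18), from 6.64 in the control to -1.89 in the depleted libraries. The depletion was by dsRNA in culture and by an RNAi transgene in animals, so the strength of depletion and the cell kind cannot be told apart in these differences.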

How the results depend on the processing

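For BG3 against larval control neurons with no minimum fold, 3249 genes were higher and 3769 lower in place of 2119 and 2579. Upper-quartile scaling gave 2573 higher and 2178 lower, 54.2% higher of those called in place of 45.1%, with the median of all tested genes at 0.15. With each library left out in turn, 1993 to 2220 genes were higher and 2287 to 2957 were lower. Thinning all libraries to 3141100 counts gave 2026 higher and 2138 lower, DESeq2 without a filter 2272 and 3203, and edgeR without a filter 2429 and 3568. The 233 named genes tested gave 4774 results unchanged in direction and call over 21 alternatives, 35 that lost and 48 that gained a call. For a further 35 pairs of gene and alternative there was no value, because the gene did not pass the filter with fewer libraries or counts or had been removed by the alternative. The 1 reversal was shot, at 0.35 with the exonic length trend removed, an alternative added after the data were seen. The cause was not tested. The replicate block gave 4700 called genes, 4682 shared with the fit without it, and 4719 called genes for BG3 against larval neurons after shep depletion. The labels do not say that a number marks a shared animal or day, and deviations of same-numbered libraries correlated at 0.03, 0.06 and -0.03. The BG3 libraries were the less deep ones, so low genes are less precise there.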

Other observations

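Of 16 fat body and haemolymph genes, 8 were tested, 4 were higher, 1 was lower and 3 were not called. For all tested genes the shares were 25.3% higher and 30.9% lower. The 4 higher genes of the list act in lipid synthesis and transport. FASN1, fatty acid synthase, was at 2677, 2383 and 2699 CPM in BG3 and 371, 382 and 394 CPM in neurons (log2 fold change 2.76 with SE 0.10, edgeR adjusted p = 2.33e-14). Apoltp, a lipid transfer particle protein, was at 962, 844 and 1003 CPM in BG3 and 67.5, 64.9 and 61.2 CPM in neurons (log2 fold change 3.86 with SE 0.10, edgeR adjusted p = 3.56e-16). Npc2a, a sterol-binding protein, and Desat1, a fatty acid desaturase, had BG3 means of 129 ± 25.1 and 203 ± 7.52 CPM against 0.751 ± 0.214 and 45.3 ± 3.71 CPM in neurons. apolpp, the main lipoprotein of the haemolymph, was at 5.11, 2.86 and 4.95 CPM in BG3 and 6.06, 4.41 and 6.69 CPM in neurons, with overlapping groups (log2 fold change -0.41 with SE 0.28, edgeR adjusted p = 0.185).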
